A study of Rattus norvegicus with 11 samples.

Results

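The opioid system of the dorsal root ganglion was followed through 8 genes, chosen by symbol: the 4 opioid receptor genes Oprm1, Oprd1, Oprk1 and Oprl1, and the 4 opioid peptide precursor genes Penk, Pdyn, Pnoc and Pomc. All 8 were among the 16811 genes of the deposited table. The 11 libraries were made from total RNA of Sprague-Dawley rat dorsal root ganglia, the clusters of sensory neuron cell bodies beside the spinal cord. The SNL plus UNC0638 group (n = 3) had a spinal nerve ligation on the left side and received UNC0638, an inhibitor of the histone methyltransferases G9a and GLP. The SNL group (n = 4) had the left-sided ligation alone, which models neuropathic pain, and the Sham group (n = 4) is labelled as control from the right side, so that side and ligation cannot be told apart. No group received UNC0638 without ligation, and the sources used here do not give the time after surgery, the dose or the age of the rats. The labels do not say whether a library was 1 animal or a pool, so p-values measure only how these libraries spread, which may be technical.

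Opioid receptors are G protein-coupled receptors that act through inhibitory G proteins. On sensory neurons they are known to lower adenylyl cyclase activity, close voltage-gated calcium channels and, through G protein beta-gamma subunits, open inwardly rectifying potassium channels, which reduces transmitter release from nociceptors. Proenkephalin (Penk) yields enkephalins for the mu and delta receptors, prodynorphin (Pdyn) yields dynorphins for the kappa receptor, prepronociceptin (Pnoc) yields the ligand of the nociceptin receptor, and proopiomelanocortin (Pomc) yields beta-endorphin along with other hormones.

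Values are scaled counts, which are gene counts that the authors brought to a common library size. A library held 6127897 to 24367784 reads, estimated from the step between its lowest values, and limma was run on the 12085 genes that reached a scaled count of 10 in 3 or more libraries. Sensory neuron markers were present, with summed levels of 94333 to 168166 in SNL plus UNC0638, 80461 to 140292 in SNL and 258436 to 325850 in Sham libraries (6 of 8 markers in the table). SNL plus UNC0638 replicate 1 stood apart: its 8 skeletal muscle markers summed to 70678, against 146 and 224 in the other libraries of its group. SNL replicate 3 deviated from its group in the same direction as Sham replicate 3 (r of the deviations over genes 0.43) and as SNL plus UNC0638 replicate 1 (0.43). In bulk tissue, fewer cells of a type and less RNA per cell cannot be told apart. Of 10 pan-neuronal genes, 8 were lower and 1 higher in SNL than in Sham (all tested genes: 23.4% lower, 24.8% higher).

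After ligation, 4 of the 7 opioid genes that passed the filter fell and 1 rose, where 23.4% of all tested genes were lower, 24.8% higher and 48.2% called in either direction. The 4 that fell were the mu, delta and nociceptin receptor genes and Penk, and the 1 that rose was Pdyn. Pdyn reached the minimum of 10 in 4 SNL, 1 SNL plus UNC0638 and 0 Sham libraries. It therefore entered these counts only through its level after ligation, which favours a rise. The median log2 fold change of the 7 was -0.66, against -0.003 over all tested genes. The libraries of SNL and Sham did not overlap for 5 of the 7, as for 43.3% of all tested genes. In ligated ganglia with UNC0638, Oprm1 and Penk stood higher than with ligation alone and Pdyn lower, where 13.5% of all tested genes were higher and 14.3% lower (27.8% together). The libraries of these groups did not overlap for 4 of the 7, as for 37.6% of all tested genes. The SNL libraries enter both comparisons, so that their own deviations move both in opposite directions.

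**Figure D1:**
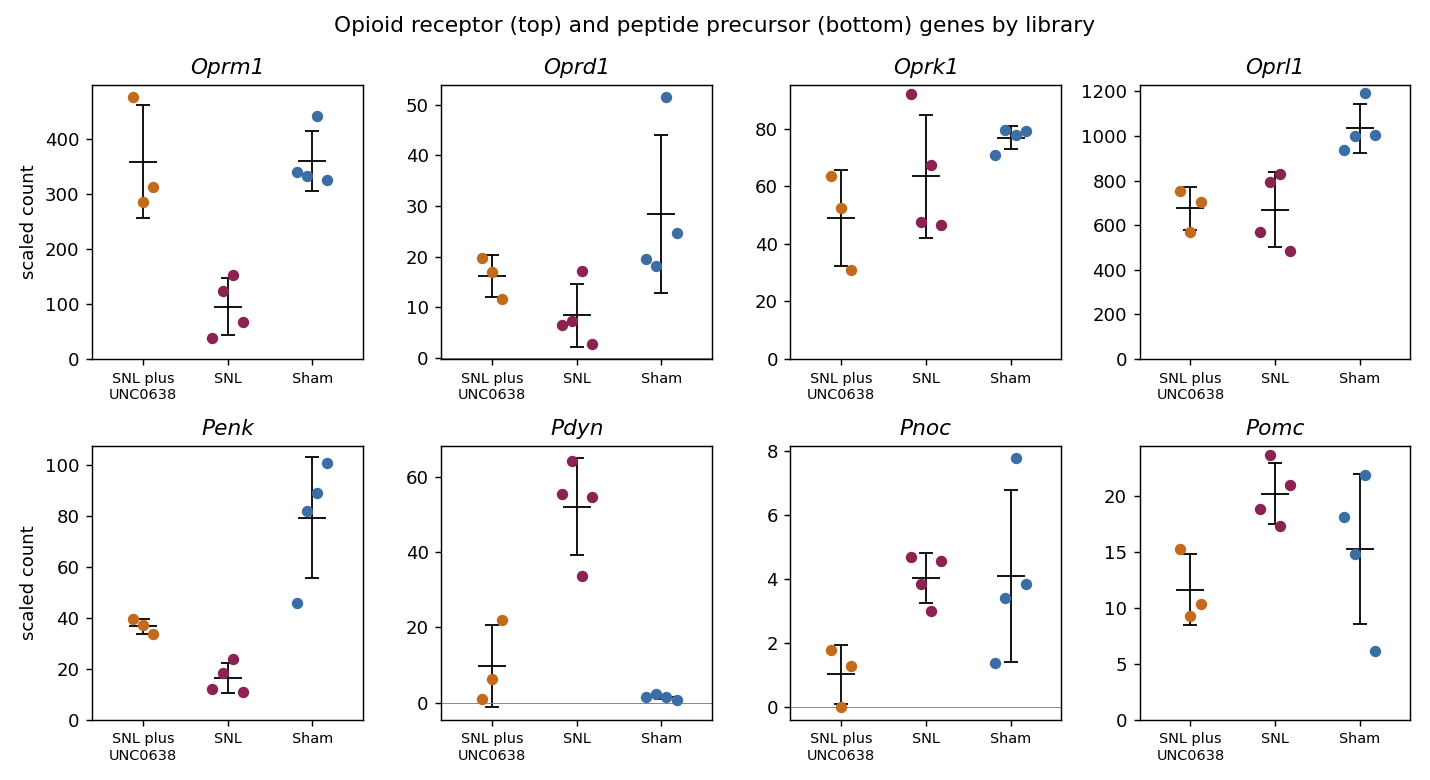
Scaled counts of the 8 opioid genes, with 1 point per library and the mean ± SD of each group as a bar (SNL plus UNC0638 n = 3, SNL n = 4, Sham n = 4). Oprm1 was lowest in the 4 SNL libraries (38.6 to 152), Penk likewise (10.9 to 24.03), and Pdyn was highest there (33.8 to 64.3).

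The promoter windows of Oprm1 and Pdyn are shown because Oprm1 had the largest change among the receptors after ligation and Pdyn the largest among the precursors, in opposite directions. RefSeq's promoter table, on build GRCr8, held windows for 4 of the 8 genes, and the 250 bases before the annotated start are given 5′ to 3′, with motif matches in capitals. For Oprm1 the window listed first of 2 is shown, chr1:45585733-45585982 on the plus strand. For Pdyn it is chr3:137366504-137366753 on the minus strand.
Oprm1: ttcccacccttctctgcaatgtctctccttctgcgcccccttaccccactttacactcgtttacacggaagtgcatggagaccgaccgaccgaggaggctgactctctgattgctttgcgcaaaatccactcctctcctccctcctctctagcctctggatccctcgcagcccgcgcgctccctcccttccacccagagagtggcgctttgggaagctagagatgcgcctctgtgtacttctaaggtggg
Pdyn: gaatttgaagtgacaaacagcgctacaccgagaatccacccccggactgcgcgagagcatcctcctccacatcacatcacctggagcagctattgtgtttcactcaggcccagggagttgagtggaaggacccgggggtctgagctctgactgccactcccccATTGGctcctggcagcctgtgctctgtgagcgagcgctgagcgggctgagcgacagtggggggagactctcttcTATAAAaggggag
The motifs searched on both strands were the cyclic AMP response element TGACGTCA, the AP-1 site TGANTCA, the GC box GGGCGG, the TATA box TATAAA and the CCAAT box CCAAT. The Oprm1 window held none of them, so it has no capitals. The Pdyn window held a TATA box that begins 13 bases before the start and a CCAAT box on the opposite strand that begins 87 bases before it. Of 33469 promoter windows of the same length, 12.9% held the TATA box, 34.0% the CCAAT box, 30.5% the GC box, 6.34% the AP-1 site and 1.59% the cyclic AMP response element. The window of Oprd1, which fell like Oprm1, held 4 GC boxes at a GC content of 79.6%, against 58.4% for Oprm1 and 59.2% for Pdyn, and a median of 51.2% over all windows. A match is a run of letters and not a binding site.

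Oprm1 encodes the mu opioid receptor, the main target of morphine. Its scaled count was 38.6, 123, 152 and 67.5 in the SNL libraries, against 339, 333, 441 and 326 in the Sham libraries. Every SNL library lay below every Sham library, and the highest SNL value was less than the lowest Sham value. Oprm1 fell by 2.08 on the log2 scale (SE 0.36, 95% interval -2.86 to -1.30, limma adjusted p = 0.000743), a 4.22-fold lower level. With UNC0638 the values were 476, 286 and 313, against the SNL values above, and again no library of one group reached the other. The mean was 359 ± 103 in SNL plus UNC0638 and 95.4 ± 51.7 in SNL, a log2 fold change of 2.05 (SE 0.38, 95% interval 1.21 to 2.89, limma adjusted p = 0.00358).

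Set against Sham, Oprm1 with UNC0638 overlapped the Sham range, with 359 ± 103 in SNL plus UNC0638 and 359.8 ± 54.4 in Sham (log2 fold change -0.03, 95% interval -0.87 to 0.81, limma adjusted p = 0.954). The highest of these 3 libraries, 476, was replicate 1, which carried the skeletal muscle markers. Without that library the difference between SNL plus UNC0638 and SNL was 1.83 (limma adjusted p = 0.0165). The call also held with a covariate shared by every SNL plus UNC0638 library and by replicate 3 of both other groups, chosen from an earlier look at these data (log2 fold change 1.47, limma adjusted p = 0.0423).

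Within the SNL group, Oprm1 was highest in replicates 2 and 3 (123 and 152). The mean log2 level of the pan-neuronal genes in these 2 libraries minus that of Sham was -0.65 and -0.42, against -1.002 and -1.14 in replicates 1 and 4. In the SNL plus UNC0638 libraries it was -0.42, -0.95 and -1.05. The group means of this level were -0.80 in SNL plus UNC0638 and -0.80 in SNL. The summed scaled counts of the same genes did differ, at 65420 to 81719 in SNL plus UNC0638 and 112403 to 143217 in SNL. Tubb3, a neuronal tubulin gene and the highest of them, was at 33360 ± 1883 in SNL plus UNC0638, 78534 ± 10729 in SNL and 55672 ± 6741 in Sham. Between SNL plus UNC0638 and SNL, 1 of the 10 genes was called higher and 3 lower (all tested genes: 13.5% and 14.3%). Means were higher in SNL plus UNC0638 for Elavl3, Elavl4, Rbfox3, Snap25, Map2 and Syt1, and lower for Tubb3, Uchl1, Thy1 and Eno2.

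The mean levels of sensory neuron markers moved in the same directions as Oprm1 and Penk. The mean log2 level of the 4 peptidergic nociceptor markers minus that of Sham was -1.21 in SNL plus UNC0638 and -2.21 in SNL, and that of the 5 non-peptidergic markers was -0.63 in SNL plus UNC0638 and -2.19 in SNL. For the 5 large-diameter neuron markers it was -0.49 in SNL plus UNC0638 and -1.65 in SNL, and for the 6 general sensory neuron markers -0.90 in SNL plus UNC0638 and -1.55 in SNL. After ligation 4 of 4 peptidergic and 5 of 5 non-peptidergic markers were called lower. Their median log2 fold changes were -2.32 and -1.36, against -2.08 for Oprm1. The non-peptidergic mean includes Mrgprd, with a log2 fold change of -6.12 and a scaled count of 7.63 ± 13.5 in SNL. Fewer large-diameter markers were called lower (2 of 5, median log2 fold change -0.67), and 5 of 6 general markers were. Of all tested genes, 23.4% were lower.

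Peptidergic markers summed to 7634 to 14171 in SNL plus UNC0638, 3464 to 8079 in SNL and 21051 to 29252 in Sham, and non-peptidergic markers to 4391 to 7081 in SNL plus UNC0638, 3754 to 5249 in SNL and 6406 to 9769 in Sham. No marker of these lists was at 0 throughout. With UNC0638, 1 of 4 peptidergic, 2 of 5 non-peptidergic, 1 of 5 large-diameter and 1 of 6 general markers were called higher than in SNL. The general marker Prph was called lower (22740 ± 970 in SNL plus UNC0638, 38553 ± 3238 in SNL). Of all tested genes, 13.5% were higher and 14.3% lower. Among the markers called higher were the capsaicin receptor gene Trpv1 (log2 fold change 1.94, limma adjusted p = 0.00232), the sodium channel gene Scn10a (2.68, limma adjusted p = 0.00257) and Mrgprd (5.08, limma adjusted p = 0.00234). The part of these neuron types in the Oprm1 and Penk levels was not tested.

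**Figure D2:**
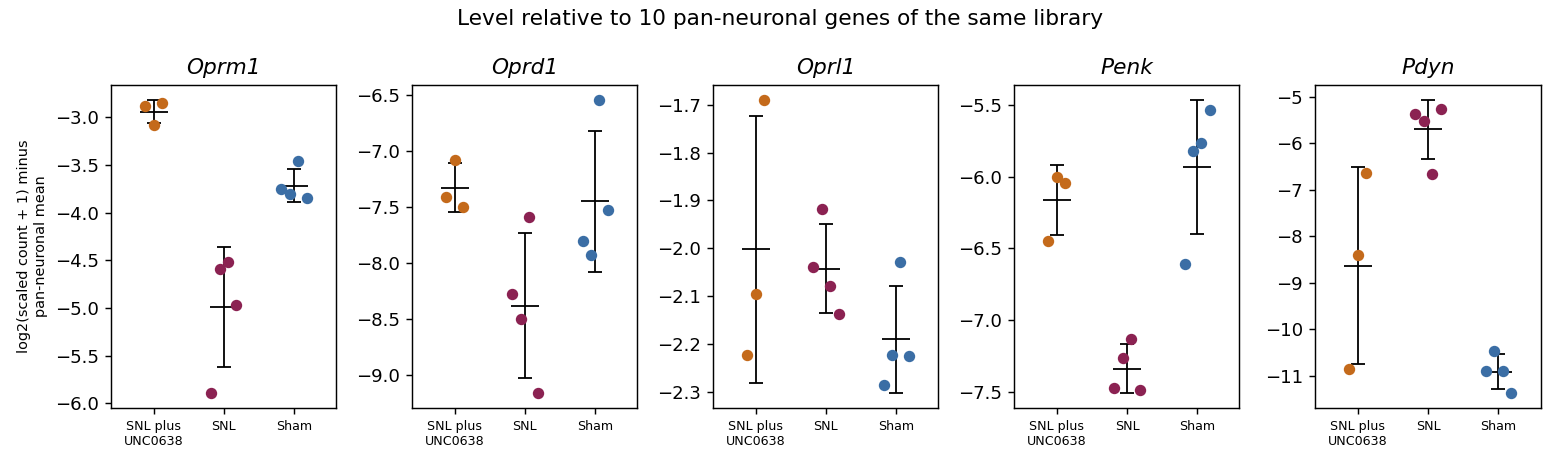
Log2 level of 5 opioid genes minus the mean log2 level of 10 pan-neuronal genes in the same library, with 1 point per library and the mean ± SD per group. Each panel has its own vertical range. Oprm1 lay at -3.09 to -2.85 in SNL plus UNC0638, at -5.89 to -4.52 in SNL and at -3.85 to -3.46 in Sham.

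Scaled to the pan-neuronal genes, which moved the median of all tested genes to 0.80 between SNL and Sham, Oprm1 still fell by 1.28 (limma adjusted p = 0.000955). No scaling to the nociceptor markers, which fell further than the pan-neuronal genes, was run. With scaling to the pan-neuronal genes, Oprm1 was higher in SNL plus UNC0638 than in SNL by 2.05 (limma adjusted p = 0.000374). It was then also higher in SNL plus UNC0638 than in Sham, by 0.77 (limma adjusted p = 0.0351), where the median of all genes was 0.79, so that this difference is no larger than the shift of a typical gene.

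The genes whose log2 levels followed Oprm1 most closely over the 11 libraries were Rab36 (Pearson r 0.986), Usp31 (0.983) and Abcc8 (0.982), a description over libraries that share the group differences. Abcc8 encodes the sulfonylurea receptor of ATP-sensitive potassium channels, and its scaled count was 171 ± 63.8 in SNL plus UNC0638, 44.8 ± 21.0 in SNL and 174 ± 32.9 in Sham. In all, 401 tested genes had an r above 0.9 with Oprm1 and 188 an r below -0.9.

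In the reference annotation of rat build GRCr8, a later build than the one used for counting, Oprm1 overlaps the gene Ipcef1. The sources used here do not say whether strand was used in counting, and reads from both genes cannot then be told apart. Ipcef1 was at 33.8 ± 1.39 in SNL plus UNC0638, 26.5 ± 2.34 in SNL and 18.2 ± 5.72 in Sham. Its log2 fold change between SNL and Sham was 0.56 (limma adjusted p = 0.0722), opposite in sign to that of Oprm1. The same annotation has Pomc overlapping the protein-coding gene Efr3b, Pdyn a long noncoding RNA gene, and Oprm1 also a long noncoding RNA gene and a pseudogene, so the same ambiguity holds for the few reads of Pomc and Pdyn. The step behind each value puts 959 reads on Oprm1 in the 3 SNL plus UNC0638 libraries, 605 in the 4 SNL libraries and 1244 in the 4 Sham libraries.

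Oprd1 encodes the delta receptor, which binds enkephalins. Its scaled count was 6.58, 7.29, 17.3 and 2.74 in the SNL libraries, against 19.5, 18.2, 51.4 and 24.6 in the Sham libraries. The groups did not overlap, although SNL replicate 3 (17.3) came close to the lowest Sham library (18.2). Oprd1 fell by 1.74 on the log2 scale (SE 0.47, 95% interval -2.77 to -0.70, limma adjusted p = 0.0103), a 3.33-fold lower level. These values rest on 50 reads in SNL and 95 in Sham.

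With UNC0638, Oprd1 was at 19.7, 17.0 and 11.6, which overlapped both other groups. SNL replicate 3 (17.3) lay within the SNL plus UNC0638 range, and the difference from SNL did not pass (log2 fold change 1.05, 95% interval -0.06 to 2.16, limma adjusted p = 0.139). Without SNL replicate 3 it did (1.44, limma adjusted p = 0.0335). With the covariate for that library set the difference was -0.02 (limma adjusted p = 0.987), and against Sham it was then -1.75 (limma adjusted p = 0.0100). Against Sham, Oprd1 in SNL plus UNC0638 differed by -0.68 (95% interval -1.80 to 0.43, limma adjusted p = 0.278) without that term. The genes most like Oprd1 over the 11 libraries were Sphk2 (r 0.980), the vesicular glutamate transporter gene Slc17a7 (0.976) and Zfand3 (0.973). Slc17a7 was at 1624 ± 508 in SNL plus UNC0638, 1005 ± 588 in SNL and 2671 ± 976 in Sham.

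Oprl1 encodes the nociceptin receptor, which resembles the other 3 receptors in sequence but is not a target of morphine. It was at 571, 792, 830 and 486 scaled counts in the SNL libraries, against 939, 1000, 1194 and 1006 in the Sham libraries. All SNL libraries lay below all Sham libraries, by a smaller factor than for Oprm1. Oprl1 fell by 0.66 (SE 0.17, limma adjusted p = 0.00879), 1.58-fold lower. With UNC0638 it stayed within the SNL range, at 755, 569 and 704, with a log2 fold change from SNL of 0.04 (95% interval -0.37 to 0.45, limma adjusted p = 0.884). Against Sham it was 1.53-fold lower in SNL plus UNC0638 (log2 fold change -0.62, SE 0.19, limma adjusted p = 0.0165), a call that was lost without SNL plus UNC0638 replicate 2 (-0.50, limma adjusted p = 0.0815).

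The Oprl1 difference between SNL and Sham was close to that of the pan-neuronal genes. Scaled to them it was 0.15 (limma adjusted p = 0.461), so its direction turned, where the median of all genes was 0.80. The genes most like it were Epb41l3 (r 0.967), the plasma membrane calcium pump gene Atp2b1 (0.961) and Ppp5c (0.960). Atp2b1 was at 3476 ± 363 in SNL plus UNC0638, 3404 ± 418 in SNL and 4421 ± 121 in Sham.

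Oprk1 encodes the kappa receptor, the target of dynorphins. It was at 92.2, 47.6, 67.6 and 46.5 in the SNL libraries, against 70.9, 79.5, 77.9 and 79.2 in the Sham libraries. The SNL libraries spread on both sides of the narrow Sham range, and the difference did not pass (log2 fold change -0.33, 95% interval -0.90 to 0.25, limma adjusted p = 0.320). In SNL plus UNC0638 the values were 63.7, 52.6 and 31.0, all below the Sham range and overlapping that of SNL. The difference from SNL was -0.37 (95% interval -0.99 to 0.25, limma adjusted p = 0.341). That from Sham was -0.70 (95% interval -1.32 to -0.08, limma adjusted p = 0.0579), and it passed without SNL replicate 1 (-0.70, limma adjusted p = 0.0411) or without SNL plus UNC0638 replicate 1 (-0.91, limma adjusted p = 0.0268). The closest genes to Oprk1 were Slu7 (r 0.889), Rfc2 (0.881) and Anapc7 (0.880), and no gene had an r above 0.9 with it.

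**Figure D3:**
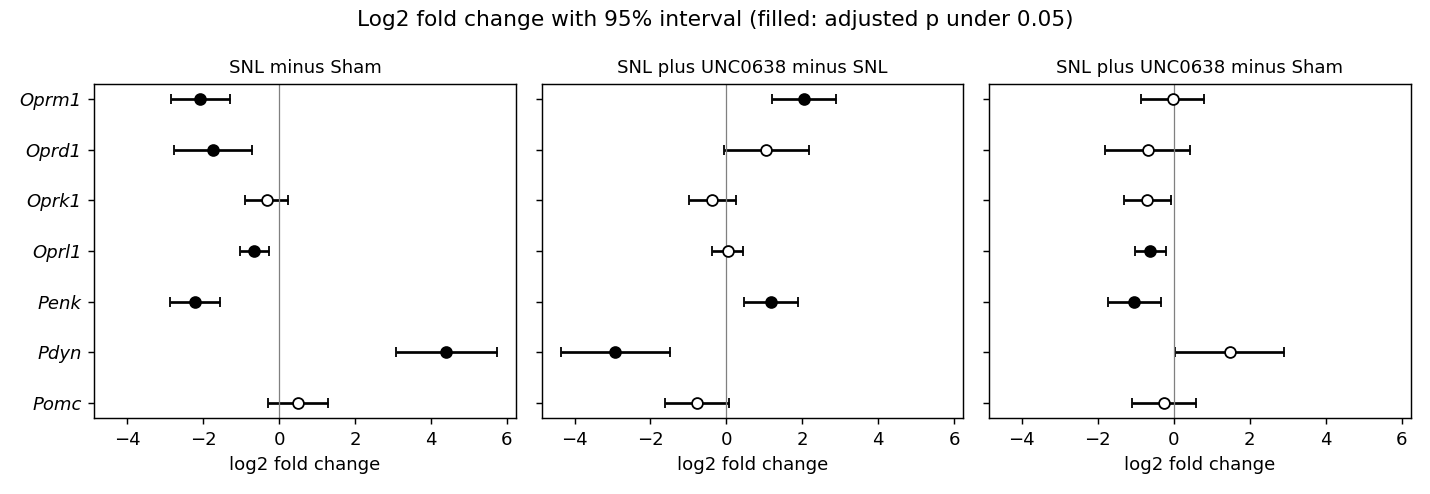
Log2 fold change with its 95% interval for the 7 opioid genes tested, in the 3 comparisons. Filled points have a limma adjusted p under 0.05. Oprm1 lay at -2.08 for SNL minus Sham, 2.05 for SNL plus UNC0638 minus SNL and -0.03 for SNL plus UNC0638 minus Sham, while Oprl1 lay at -0.66, 0.04 and -0.62.

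Among the peptide precursors, Penk fell and Pdyn rose after ligation. Penk was at 12.2, 18.4, 24.03 and 10.9 in the SNL libraries, against 45.9, 81.8, 88.8 and 101 in the Sham libraries, with no overlap. Penk fell by 2.21 (SE 0.30, 95% interval -2.86 to -1.56, limma adjusted p = 0.000199), a 4.64-fold lower level, and by 1.44 with scaling to the pan-neuronal genes (limma adjusted p = 0.000958).

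With UNC0638, Penk was at 39.5, 37.1 and 33.5, above all SNL libraries and below all Sham libraries. It was 2.26-fold higher than in SNL (log2 fold change 1.18, SE 0.32, limma adjusted p = 0.0199) and 2.05-fold lower than in Sham (log2 fold change -1.04, SE 0.32, limma adjusted p = 0.0185). Both calls depended on single libraries. That against SNL was lost without SNL replicate 1 or 4, or without replicate 1 or 2 of SNL plus UNC0638 (log2 fold changes 1.07, 1.02, 1.12 and 1.17, limma adjusted p 0.0555, 0.0505, 0.0558 and 0.0593). That against Sham was lost without Sham replicate 4, or without replicate 2 or 3 of SNL plus UNC0638 (-0.90, -1.05 and -0.97, limma adjusted p 0.0566, 0.0512 and 0.0622). The covariate for that library set also ended the call against SNL (0.77, limma adjusted p = 0.210), as did limma-voom (1.13, limma adjusted p = 0.0618). Scaling to the pan-neuronal genes ended the call against Sham (-0.25, limma adjusted p = 0.543), where the median of all genes was 0.79.

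Penk is also expressed outside sensory neurons, among others in fibroblasts and immune cells. The 6 fibroblast markers, all in the table, summed to 38017 to 93261 in SNL plus UNC0638, 85909 to 217026 in SNL and 24041 to 33735 in Sham. The 7 T and NK cell markers summed to 658 to 1121 in SNL plus UNC0638, 710 to 942 in SNL and 157 to 422 in Sham, and no marker of either list was at 0 throughout. All 6 fibroblast markers and 5 of the 6 T and NK cell markers tested were called higher in SNL than in Sham, where Penk was lower. Of all tested genes, 24.8% were higher. In SNL plus UNC0638, where Penk was higher than in SNL, 2 of the 6 T and NK cell markers were called higher and 0 lower. Of the fibroblast markers, 3 were called lower there and 0 higher (all tested genes: 14.3% lower, 13.5% higher). The mean log2 level of the 7 T and NK cell markers minus that of Sham was 3.00 in SNL plus UNC0638 and 1.80 in SNL. Cd4 was the largest part of their sums. The part of both lists in the Penk levels was not tested. Genes like Penk over the 11 libraries included Wdfy1 (r 0.962) and Ankrd13d (0.960).

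Pdyn was close to 0 in Sham ganglia and present in every ligated library without UNC0638. Its scaled count was 55.5, 64.3, 33.8 and 54.7 in the SNL libraries, against 1.39, 2.27, 1.56 and 0.769 in the Sham libraries. The estimated reads were 59, 150, 45 and 60 in SNL, against 1, 2, 1 and 1 in Sham. The pooled read rate in SNL was 38.2 times that in Sham, with an exact 95% interval of 16.2 to 118 that covers counting error only. On the log2(value + 1) scale, which understates the change of such a low gene, Pdyn rose by 4.41 (SE 0.61, limma adjusted p = 0.000217). No Sham library reached the minimum of 10, so that Pdyn was tested because of its level after ligation.

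With UNC0638 the 3 libraries differed widely, at 0.897, 6.19 and 21.9 scaled counts (1, 4 and 17 reads). All lay below the lowest SNL library (33.8), and their mean was 9.67 ± 10.9. Pdyn was 7.62-fold lower than in SNL (log2 fold change -2.93, SE 0.66, limma adjusted p = 0.00818). Without SNL plus UNC0638 replicate 1, whose Pdyn value lay in the Sham range, the log2 fold change was -2.01 (limma adjusted p = 0.0180), and without replicate 3 it was -3.81 (limma adjusted p = 0.00241). The covariate for that library set ended the call (-2.68, limma adjusted p = 0.0666).

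Against Sham, Pdyn in SNL plus UNC0638 was not called (log2 fold change 1.48, 95% interval 0.05 to 2.91, limma adjusted p = 0.0781). It was called higher without replicate 1 (2.40, limma adjusted p = 0.00225) and with limma-voom (2.40, limma adjusted p = 0.0139). With pan-neuronal scaling it was also called higher (2.04, limma adjusted p = 0.0220), where the median of all genes was 0.79. Replicates 2 and 3 both lay above all Sham libraries. The 3 genes most like Pdyn over the 11 libraries were the interleukin-13 receptor gene Il13ra1 (r 0.988), Parp3 (0.983) and Gal (0.982), which encodes galanin, a neuropeptide known to rise in injured sensory neurons. In replicates 1 to 3 of SNL plus UNC0638, Gal was at 52.0, 539.9 and 768, lowest and highest in the same libraries as Pdyn. It was at 1788 to 3205 in SNL and 43.6 to 87.5 in Sham.

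Markers of spinal inhibitory neurons, among which dynorphin cells are common, summed to 10.8 to 39.5 in SNL plus UNC0638, 40.1 to 78.9 in SNL and 33.8 to 68.6 in Sham (6 of 6 in the table, with Pax2 at 0 in every library). Their ranges overlapped between SNL and Sham. Between SNL plus UNC0638 and SNL the sums came close without overlap, at 39.5 and 40.1. Their mean log2 levels minus that of Sham did overlap, at -0.66 to 0.42 in SNL plus UNC0638 and 0.15 to 0.68 in SNL. Gad1, the highest of the markers, had a log2 fold change of -2.55 between these groups (limma adjusted p = 0.0528), and Slc6a5 was also lower with UNC0638 (means 8.03 and 14.0). Gad2 (2.35 in SNL plus UNC0638, 1.37 in SNL), Slc32a1 (1.38 and 0.45) and Lbx1 (0.30 and 0) were higher, all at very low levels. Their part in the Pdyn levels was not tested.

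Pomc was low in all groups. It was at 18.8, 23.6, 17.3 and 21.0 in the SNL libraries, against 18.1, 14.8, 21.8 and 6.15 in the Sham libraries, which overlapped (log2 fold change 0.50, 95% interval -0.28 to 1.28, limma adjusted p = 0.267). In SNL plus UNC0638 it was at 15.2, 9.28 and 10.3, below all SNL libraries, yet the difference did not pass (-0.77, 95% interval -1.61 to 0.08, limma adjusted p = 0.152). Where pan-neuronal scaling or limma-voom on the estimated reads was used, Pomc was higher in SNL than in Sham (1.25 and 0.88, limma adjusted p 0.0124 and 0.0322). The median of all genes was 0.80 with pan-neuronal scaling and -0.009 with limma-voom. The 5 pituitary markers summed to at most 21.9 in any library, with Prl at 0 throughout.

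Pnoc did not pass the filter. It was at 4.70, 3.86, 3.00 and 4.56 in the SNL libraries, against 1.39, 3.41, 7.79 and 3.84 in the Sham libraries, so that SNL lay within the Sham range. In SNL plus UNC0638 it was at 1.79, 0 and 1.29, which is 3 reads in all, against 23 in SNL. The pooled read rate was 0.299 times that of SNL, with an exact 95% interval of 0.0576 to 0.991 for counting error only. With no filter on low values, Pnoc was lower in SNL plus UNC0638 than in SNL (log2 fold change -1.42, limma adjusted p = 0.0425) and than in Sham (-1.31, limma adjusted p = 0.0363).

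The wider opioid pathway was followed in 70 further genes, grouped by role, of which 63 were in the table and 61 tested. After ligation 19 fell and 12 rose (23.4% and 24.8% of all tested genes did), with a median log2 fold change of -0.11. Scaled to the pan-neuronal genes, the split was 35 higher and 6 lower, where the median of all genes was 0.80, so directions given here hold relative to the authors' scaling. With UNC0638, 10 were higher and 7 lower than in SNL (13.5% and 14.3% of all tested genes were), with a median of 0.06. Without SNL plus UNC0638 replicate 1 the 10 became 6, and with the covariate for that library set 4 were higher and 4 lower. Against Sham, 13 were higher and 19 lower in SNL plus UNC0638. With pan-neuronal scaling these counts were 32 and 1, where the median of all genes was 0.79.

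**Figure D4:**
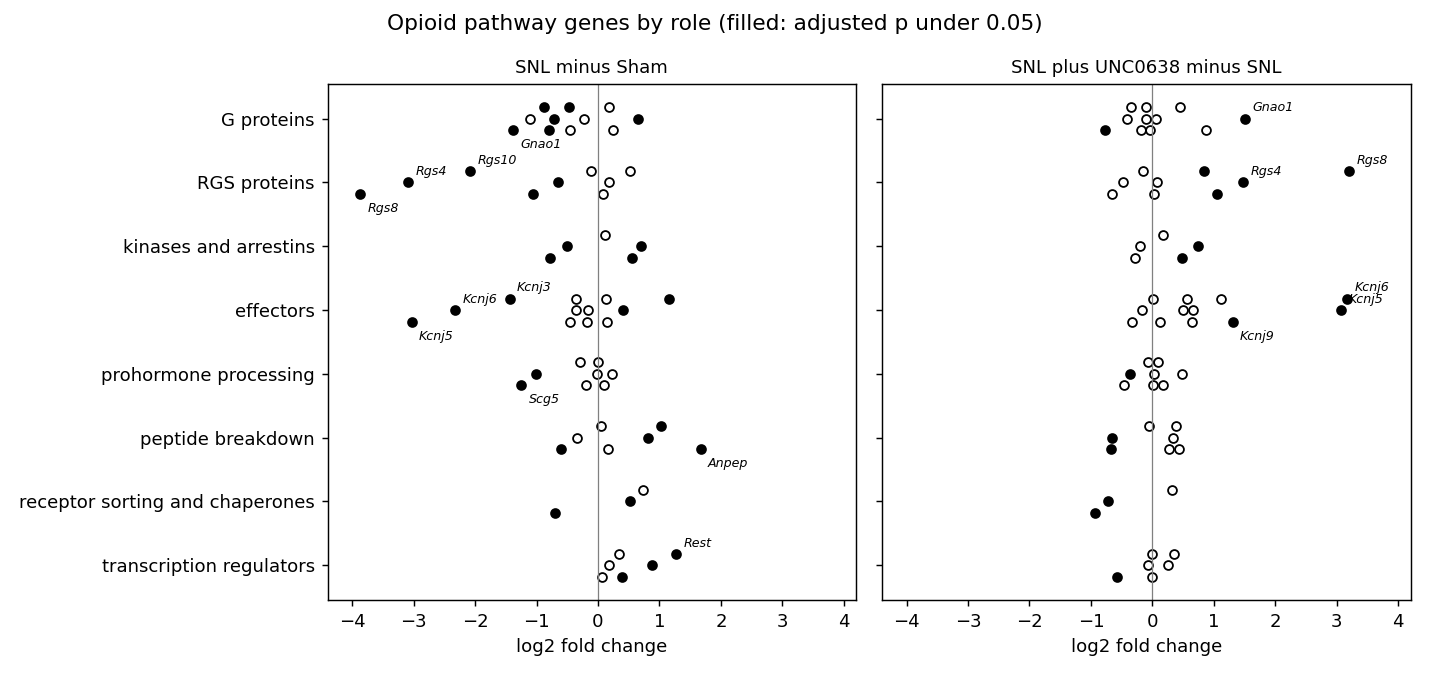
Log2 fold changes of the 61 pathway genes tested, by role, for SNL minus Sham and SNL plus UNC0638 minus SNL, with 1 point per gene and filled points for a limma adjusted p under 0.05. Called genes with a change beyond 1.2 are named. Rgs8 lay at -3.86 and 3.20, Rgs4 at -3.09 and 1.48, and Kcnj5 at -3.03 and 3.08.

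Regulators of G protein signalling, which speed up the switching-off of G proteins, gave 5 lower and 0 higher of 9 after ligation (all tested genes: 23.4% lower, 24.8% higher). Rgs4, a regulator of inhibitory G proteins, was at 2261 ± 906 in SNL and 19125 ± 7053 in Sham (log2 fold change -3.09, limma adjusted p = 0.000151). Rgs8 was at 6.18 ± 5.58 in SNL and 87.8 ± 24.9 in Sham, Rgs10 at 511 ± 32.5 in SNL and 2200 ± 417 in Sham, and Rgs7 at 371 ± 68.9 in SNL and 769 ± 74.2 in Sham. With UNC0638, 4 of the 9 were higher than in SNL and 0 lower (all tested genes: 13.5% higher, 14.3% lower). These were Rgs8 (53.9 ± 11.6 in SNL plus UNC0638, log2 fold change 3.20, limma adjusted p = 0.00130), Rgs4 (6480 ± 3587, 1.48), Rgs10 (1115 ± 416, 1.06) and Rgs14 (101 ± 5.06, 0.84).

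G protein subunit genes gave 5 lower and 1 higher of 11 after ligation (all tested genes: 23.4% lower, 24.8% higher). Gnai1 and Gnai3 encode inhibitory alpha subunits and went opposite ways. Gnai1 was at 796 ± 113 in SNL and 1305 ± 124 in Sham (log2 fold change -0.72, limma adjusted p = 0.000844), and Gnai3 at 2732 ± 239 in SNL and 1752 ± 251 in Sham (0.65, limma adjusted p = 0.00267). The beta subunit genes Gnb4 and Gnb5 fell by 0.79 and 0.87. With UNC0638, Gnao1, the alpha subunit abundant in neurons, was higher than in SNL (2324 ± 947 in SNL plus UNC0638, 943 ± 696 in SNL, log2 fold change 1.51, limma adjusted p = 0.0476) with overlapping libraries, and Gnai3 was lower (1602 ± 259 in SNL plus UNC0638, -0.78, limma adjusted p = 0.00398).

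Of 12 effector genes, 3 fell and 2 rose after ligation, near or below the shares over all tested genes (23.4% lower, 24.8% higher). The 3 encode subunits of the inwardly rectifying potassium channels that opioid receptors open: Kcnj3 (104 ± 31.0 in SNL and 275 ± 21.5 in Sham, log2 fold change -1.44), Kcnj5 (3.26 ± 1.78 in SNL and 35.3 ± 17.8 in Sham, -3.03) and Kcnj6 (41.2 ± 43.1 in SNL and 160.3 ± 92.9 in Sham, -2.32), with limma adjusted p between 0.000289 and 0.00984. Kcnj9, of the same channel family, was not called (26.2 ± 5.47 in SNL and 23.2 ± 3.32 in Sham, log2 fold change 0.15, limma adjusted p = 0.673). The Kcnj6 libraries of SNL and Sham overlapped. The 2 that rose encode adenylyl cyclases, Adcy6 (844 ± 112 in SNL and 384 ± 81.5 in Sham, 1.15) and Adcy2 (525 ± 72.6 in SNL and 395 ± 24.9 in Sham, 0.40). With UNC0638, Kcnj5 (34.2 ± 12.4, log2 fold change 3.08), Kcnj6 (286 ± 163, 3.17) and Kcnj9 (68.4 ± 24.3 in SNL plus UNC0638, 26.2 ± 5.47 in SNL, 1.31) were higher than in SNL, and Kcnj3 was not called. The pore genes of the calcium channels that the receptors close, Cacna1a and Cacna1b, were not called in either comparison (limma adjusted p 0.0617 and 0.0682 with UNC0638).

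Kinases and arrestins, which switch off and internalise the receptors, gave 2 higher and 2 lower of 5 after ligation (all tested genes: 24.8% higher, 23.4% lower). Arrb1 rose by 0.70 and Grk6 by 0.56, while Arrb2, the arrestin that desensitises the mu receptor, fell by 0.79 and Adrbk1, the gene of the receptor kinase GRK2, by 0.51. With UNC0638, Grk5 (434 ± 40.5 in SNL plus UNC0638, 260 ± 39.3 in SNL, log2 fold change 0.75) and Adrbk1 (1440.0 ± 147 in SNL plus UNC0638, 1042 ± 177 in SNL, 0.48) were higher than in SNL, with limma adjusted p of 0.0207 and 0.0497.

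Genes of prohormone processing, which encode enzymes and their partner proteins, gave 2 lower and 0 higher of 8 after ligation. The lower count was near the share over all tested genes (23.4% lower, 24.8% higher). The 2 lower genes were the convertase gene Pcsk2 (863 ± 214 in SNL and 1698 ± 81.0 in Sham, log2 fold change -1.01) and Scg5, whose product is the chaperone of that convertase (1092 ± 44.7 in SNL and 2622 ± 460.2 in Sham, -1.25). Among 7 peptidases, Mme, the neprilysin gene whose product cleaves enkephalins, rose by 0.82 (498 ± 93.7 in SNL and 282 ± 53.0 in Sham, limma adjusted p = 0.00470), the aminopeptidase N gene Anpep by 1.67 and Ace by 1.02, and Ece2 fell by 0.60. With UNC0638, Mme (314 ± 66.2 in SNL plus UNC0638, log2 fold change -0.66, limma adjusted p = 0.0340) and Dpp3 (1415 ± 27.6, -0.67, limma adjusted p = 0.00284) were lower than in SNL, and of the 8 processing genes only Pam was called (-0.36). Anpep is also a gene of macrophages, whose 9 markers summed to 4740 to 6835 in SNL and 1103 to 2622 in Sham, and their part in its level was not tested.

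Of 6 transcription regulators studied at opioid receptor genes, 3 rose after ligation and 0 fell (all tested genes: 24.8% higher, 23.4% lower). Rest, a repressor of neuronal genes, was at 473 ± 29.1 in SNL and 198 ± 36.7 in Sham (log2 fold change 1.27, limma adjusted p = 0.000250), and Sp1 and Stat6 rose by 0.88 and 0.38. Rest was at 483 ± 143 in SNL plus UNC0638, above Sham by 1.26 (limma adjusted p = 0.000447) and not called against SNL, where Hnrnpk was the 1 gene of 6 called (-0.58). Of 3 genes for receptor sorting and chaperones, Wls rose by 0.52 and Gabarapl1 fell by 0.70 after ligation, and both were lower in SNL plus UNC0638 than in SNL (-0.93 and -0.73).

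The genes of the 2 enzymes that UNC0638 inhibits were not called between the ligated groups. Ehmt2, the G9a gene, was at 1237 ± 277 in SNL plus UNC0638 and 1134 ± 85.4 in SNL (log2 fold change 0.11, SE 0.17, limma adjusted p = 0.661). Ehmt1, the GLP gene, was at 638 ± 51.3 in SNL plus UNC0638 and 678 ± 33.3 in SNL (-0.09, SE 0.11, limma adjusted p = 0.549). UNC0638 acts on the proteins, whose activity was not measured.

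In SNL plus UNC0638 set against Sham, 2 of the 7 opioid genes tested were lower and 0 higher, where 26.0% of all tested genes were lower and 25.5% higher (51.5% together). With pan-neuronal scaling 0 were lower and 2 higher, where the median of all genes was 0.79. The libraries did not overlap for 3 of the 7, as for 48.4% of all tested genes. The 2 called lower were Oprl1 and Penk. The order of the group means from low to high was SNL, SNL plus UNC0638, Sham for Oprd1 and Penk, and Sham, SNL plus UNC0638, SNL for Pdyn. For Oprm1 the SNL mean was lowest and the other 2 groups overlapped, and for Oprl1 both ligated groups lay together below Sham.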

How the data were processed

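Total RNA of dorsal root ganglia was extracted with Trizol or RNeasy, depleted of ribosomal RNA, and made into stranded libraries, per the labels; these do not say which library received which reagent. The authors aligned reads to rn4 with TopHat2 2.0.9 and named Cuffdiff 2.1.1, per the submitters' processing notes. The deposited signal values are gene counts scaled with 1 factor per library; annotation, strand use and scaling method are not stated in the sources. Of the values above 0, 98.84% to 99.44% per library were whole multiples of 1 step within 0.05 steps, which gave the estimated reads. A few smaller fractional values kept a count model, planned as an alternative, from being run.

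A linear model with a mean per group was fitted across all 11 libraries on log2(value + 1) with limma 3.58.1 (R 4.3.3) using eBayes with trend and robust settings. Tests were two-sided, with Benjamini-Hochberg adjustment over 12085 genes and a threshold of 0.05. Sdc2 and Pcdhgc5, each at 0 in 1 whole group only, were excluded once their values had been seen. The script was tested on simulated data. Alternatives changed the scaling, pseudocount, filter, test, covariates or libraries. Members, lists and alternatives were chosen with earlier results of these data known. Named were all members, up to 4 called genes per pathway role by p (Adcy2 was added after its value was seen), and the 3 genes with the highest r to each member, of which 1 is not reported here. Squared differences between replicates of a group were 5.78 to 77.2 times those expected from counting noise (chi-square per degree of freedom).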

Additional observations from a re-analysis of the deposited data

Results flagged for a closer look

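Oprm1 in Sham replicate 3, at 441, lay far from the other Sham libraries (339, 333 and 326), by more than Dixon's 95% limit for 4 samples. Chance flags about 1 in 20 groups. Without this library Oprm1 still fell after ligation (log2 fold change -1.98, limma adjusted p = 0.00196).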

How the results depend on the processing

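Of the 21 alternatives run per result, none moved the SNL minus Sham calls of Oprm1, Oprd1, Penk and Pdyn. The cause of each change below was not tested. With pan-neuronal scaling, SNL minus Sham gave 2 opioid genes higher, and 35 pathway genes higher and 6 lower, with Oprk1 at 0.46 and Oprl1 at 0.15. SNL plus UNC0638 minus SNL gave 2 pathway genes lower and 1468 genes called in all. SNL plus UNC0638 minus Sham gave 2 opioid genes higher and 0 lower, and 32 pathway genes higher and 1 lower, with Oprm1 at 0.77, Oprd1 at 0.079, Oprk1 at 0.095, Oprl1 at 0.19 and Pomc at 0.47. With this scaling the median of all genes was 0.80 for SNL minus Sham and 0.79 for SNL plus UNC0638 minus Sham. Without a filter, 2 opioid genes (Pdyn and Pnoc) were lower in SNL plus UNC0638 than in SNL. With limma-voom, 2 opioid genes were higher in SNL minus Sham, 1 in SNL plus UNC0638 minus SNL (Oprl1 at -0.021) and 1 in SNL plus UNC0638 minus Sham (Pdyn). Without replicate 3 of both Sham and SNL, SNL plus UNC0638 minus SNL gave 20 pathway genes higher and 5341 genes called, and SNL plus UNC0638 minus Sham gave 21 pathway genes higher and Oprm1 at 0.071. With the covariate for the library set, SNL plus UNC0638 minus SNL gave 1 opioid gene higher and 0 lower, 4 pathway genes higher and 4 lower, 1286 genes called, Oprd1 at -0.017 and Oprl1 at -0.24, and SNL plus UNC0638 minus Sham gave 7 pathway genes higher. Same-numbered deviations had r of 0.19, 0.005, 0.43 and 0.10 between SNL and Sham, -0.32, -0.08 and -0.45 between SNL plus UNC0638 and SNL, and 0.01, -0.24 and -0.10 between SNL plus UNC0638 and Sham, not all over 0.1 in any of them, so the numbers were not taken as pairs. A replicate block gave 2126 genes called between SNL plus UNC0638 and SNL, Oprl1 at -0.038, and no changed call of an opioid gene.

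With each library left out in turn, SNL plus UNC0638 minus SNL gave 1 to 3 opioid genes higher, 6 to 14 pathway genes higher, 4 to 8 lower and 2032 to 4468 called in all, with Oprl1 from -0.10 to 0.16. SNL plus UNC0638 minus Sham gave 0 to 1 opioid genes higher and 0 to 3 lower, 7 to 20 pathway genes higher, and Oprm1 from -0.25 to 0.11. The planned count-model alternative was not run. Few reads limit Oprd1, Penk, Pdyn, Pomc and Pnoc most.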
